A study of Mus musculus with 12 samples.

Results

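Overexpression of Ulk1 on an otherwise wild type background was examined by comparing 3 hippocampal RNA libraries labelled Ulk1OV with 3 labelled WT, 6 of the 12 libraries of the series, chosen by their genotype labels. The other 6 libraries are 3 labelled 5xFAD and 3 labelled 5xFAD;Ulk1OV. In 5xFAD mice neurons express mutant human amyloid precursor protein and presenilin from transgenes, and plaques form. The genotype label of Ulk1OV says only that ULK1 is overexpressed. The sources used here give no construct, promoter, expressing cell type, number of lines, strain or age. WT carries no allele in its label, and the labels name no agent for either group. They name mice and hippocampal tissue and also "primary cells". Whether each replicate was its own animal is not stated, so the p-values describe the scatter of the 12 libraries, part of which may be technical.

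ULK1 is a serine/threonine kinase that starts autophagy, the process by which cytoplasm and organelles are enclosed in a double membrane and delivered to the lysosome. It acts in a complex with ATG13, FIP200 (encoded by Rb1cc1) and ATG101. AMPK activates this complex when energy is short, and mTORC1 holds it inactive when nutrients are plentiful. The complex passes the signal to a lipid kinase complex built around Beclin 1, after which the ATG8 proteins are attached to the growing membrane. In neurons autophagosomes form in the axon and are carried to the cell body, and loss of the pathway leads to protein aggregates.

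The 6 libraries held 16149992 to 18547132 counts each. Of 54427 listed genes, 17227 had enough counts to be tested, and 22784 were at 0 in every library. Granule cell markers of the dentate gyrus summed to 552.9 to 881 CPM (counts-per-million values, scaled to library size) per library and myelin genes to 9030 to 14980 CPM, so markers of neurons and glia of whole tissue were present throughout. In WT replicate 3 and Ulk1OV replicate 1 genes of the choroid plexus, the tissue that makes cerebrospinal fluid, stood apart: Ttr had 5949 and 3994 CPM there and 12.3 to 173.5 CPM in the other 4. Mitochondrially encoded genes took 5.05% to 5.42% of counts in WT and 6.40% to 8.76% in Ulk1OV. When genes were sorted by the GC content of their transcript into 10 equal groups (deciles), the top decile took 9.85% to 10.75% of counts in WT and 7.88% to 9.04% in Ulk1OV. Neither measure overlapped between WT and Ulk1OV, and no batch is named in the labels. A difference in library preparation cannot be told apart from the genotype.

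Ulk1 itself, the gene behind the label (GRCm38 chromosome 5, 110784488 to 110810097, ENSMUSG00000029512.11), had 77.6, 81.8 and 74.1 CPM in WT replicates 1 to 3 and 102, 87.7 and 84.6 CPM in Ulk1OV replicates 1 to 3. All 3 Ulk1OV libraries lay above all 3 WT libraries, by a small margin. The log2 fold change was 0.23 ± 0.11 (SE). It did not pass the quasi-likelihood test of edgeR, with Benjamini-Hochberg adjustment over every tested gene and a threshold of 0.05 for a call (edgeR adjusted p = 0.229). The transcript of Ulk1 has a GC content of 57.95%, which puts it in the top decile, where the median gene was lower in Ulk1OV. After a correction of each library for its trend over GC content and transcript length the log2 fold change was 0.47 ± 0.08 (edgeR adjusted p = 0.0161). With the correction and 1 library left out it was 0.45 to 0.52. The corrected call ended without Ulk1OV replicate 3 (edgeR adjusted p = 0.0933) or WT replicate 1 (edgeR adjusted p = 0.084). If the construct is not of mouse sequence, part of its reads may be missing from this count.

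Among the partners of ULK1, Rb1cc1, the scaffold FIP200, had 88.6, 101.1 and 108 CPM in WT and 143.5, 118.9 and 136.6 CPM in Ulk1OV. It rose by a log2 fold change of 0.42 ± 0.10 (edgeR adjusted p = 0.0332), and its corrected value of 0.26 was not called (edgeR adjusted p = 0.0756). Atg13, the regulatory subunit that binds ULK1, had 78.6 to 86.6 CPM in WT and 71.3 to 72.1 CPM in Ulk1OV (log2 -0.20 ± 0.09, edgeR adjusted p = 0.175). Of the 5 tested genes of the ULK complex 1 was called. The share of all tested genes called was 5.17%, which is 2.14% rising and 3.04% falling.

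Later stages of autophagy gave calls in both directions. Of 18 genes of the Beclin 1 lipid kinase complex and the ATG9 stage 0 were called by edgeR and 1 by DESeq2, while 3 had an unadjusted p under 0.05. Their median log2 fold change was -0.01 against 0.003 for all genes tested. In the ATG8 conjugation machinery 2 of 15 rose and 2 fell, a larger share than the 5.17% of all tested genes called. Atg5, part of the enzyme complex that attaches ATG8 proteins to lipid, rose from 25.3 to 27.5 CPM in the WT libraries to 33.3 to 35.6 CPM in Ulk1OV (log2 0.40 ± 0.09, edgeR adjusted p = 0.0324). Map1lc3a, an ATG8 protein, fell from 164.6 to 176.7 CPM to 93.3 to 141 CPM (log2 -0.61 ± 0.15, edgeR adjusted p = 0.0378). Atg4d, a protease that processes ATG8 proteins, fell by 0.55 ± 0.12 on the log2 scale (edgeR adjusted p = 0.0299). None of these 3 was called after the correction, under which 0 of the 15 were.

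Among 15 cargo receptors and mitophagy genes 1 rose: Tax1bp1, which links ubiquitinated cargo to ATG8 proteins, from 164 ± 3.53 to 214.6 ± 15.8 CPM (SD, n = 3; log2 0.39 ± 0.08, edgeR adjusted p = 0.0289), with a corrected value of 0.24 that was not called. Of 30 lysosomal hydrolases and membrane proteins edgeR called 0 (7 at an unadjusted p under 0.05, 1 rising and 2 falling by DESeq2), with a median of -0.02. The vacuolar proton pump, which acidifies lysosomes and synaptic vesicles, had 2 falls among 16 genes, and 2 falls and 1 rise with the correction. Atp6v0c, its membrane ring subunit, had 178.5, 197.6 and 170.0 CPM in WT and 96.1, 123.1 and 70.6 CPM in Ulk1OV, with no overlap. This was a fall of 0.92 ± 0.19 on the log2 scale (edgeR adjusted p = 0.0274), and -0.86 after the correction (edgeR adjusted p = 0.0345). Atp6v0b, of the same membrane sector, fell by 0.34 ± 0.09 on the log2 scale and was not called with the correction (log2 -0.17). Atp6v0d1, named after its value was seen, was called only with the correction (log2 0.29, edgeR adjusted p = 0.0428). Of 35 genes of mTOR and AMPK signalling 3 fell and 0 rose: Ddit4, a stress-induced inhibitor of mTORC1 (log2 -0.85 ± 0.19, edgeR adjusted p = 0.0299), Stk11, the kinase LKB1 that activates AMPK (log2 -0.49 ± 0.12, edgeR adjusted p = 0.0389), and Flcn, which acts with the lysosomal Rag GTPases (log2 -0.32 ± 0.09, edgeR adjusted p = 0.0479). None of the 3 was called after the correction, which called 1 of the 35 falling and 1 rising.

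Over all genes edgeR called 891, with 368 rising and 523 falling, and 888 of them (99.7%) had no overlap between the 3 WT and the 3 Ulk1OV libraries. Such a separation was found in 15.0% of all tested genes with Ulk1OV higher and 14.5% with Ulk1OV lower. Fold changes were mostly small: the median was 0.46 on the log2 scale among genes that rose and -0.74 among those that fell, and 36 and 152 passed 2-fold. The number called rested on particular libraries. It was 0 without WT replicate 1, without WT replicate 2 or without Ulk1OV replicate 3 (3173, 3328 and 2808 genes at an unadjusted p under 0.05, against 4152 with all libraries). It was 443 without WT replicate 3, 493 without Ulk1OV replicate 1 and 58 without both of these, the 2 libraries high in choroid plexus genes. DESeq2 called 1850 genes. In counts simulated without a trend over GC content 23.3% of its calls were false against 5.93% for edgeR. With such a trend planted 23.8% of the calls of uncorrected edgeR were false, and DESeq2 was not run on those counts.

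The direction of change followed the GC content of the transcripts. Genes that rose had a median GC content of 44.6% and genes that fell 56%, against 49.6% for all genes tested. In the decile with the lowest GC content 88 rose and 9 fell, and the median log2 fold change was 0.18. In the decile with the highest GC content 5 rose and 183 fell, and the median was -0.28. With the correction the medians of the 10 groups lay between 0.008 and 0.036. It called 525 genes, of which 292 rose (1.70% of those tested) and 233 fell (1.35%), so that 55.6% of calls were rises. Of the 891 genes 367 (41.2%) were among them, which is 69.9% of the 525. Corrected values or counts therefore stand beside most of the results below.

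**Figure D1:**
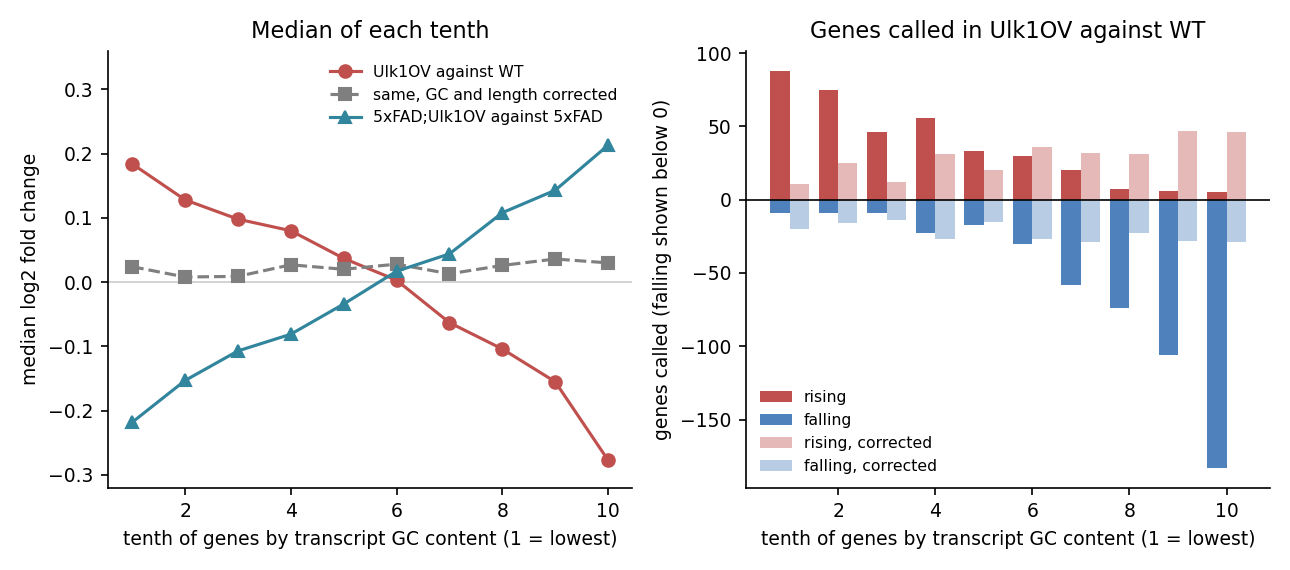
Left, median log2 fold change of genes in deciles of transcript GC content, for Ulk1OV against WT (uncorrected and corrected) and for 5xFAD;Ulk1OV against 5xFAD. Right, number of genes called in Ulk1OV against WT per decile (dark bars uncorrected, pale bars corrected), with falls drawn below 0. The median of Ulk1OV against WT went from 0.18 in the lowest decile to -0.28 in the highest, and the comparison on the 5xFAD background went from -0.22 to 0.21.

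Of the 10 largest rises among genes with a mean of at least 10 CPM, 6 were processed pseudogenes, copies of messenger RNAs pasted back into the genome. Over all genes, 26 of 607 tested processed pseudogenes rose and 26 fell, or 8.57%. Reads of a pseudogene and of its parent gene can be assigned to either, so the identity of these transcripts is uncertain. Stretches of 2 of them are shown beside the coding sequence of the parent gene, 5′ to 3′ from GENCODE M21 transcripts, to show how few bases tell them apart; capitals mark the bases that differ.
Gm15542: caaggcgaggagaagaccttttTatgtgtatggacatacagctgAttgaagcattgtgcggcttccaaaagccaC
Dnaja1: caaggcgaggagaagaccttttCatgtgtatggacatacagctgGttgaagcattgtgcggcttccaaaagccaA
Rpl6l: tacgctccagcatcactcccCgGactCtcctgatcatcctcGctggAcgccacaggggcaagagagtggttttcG
Rpl6: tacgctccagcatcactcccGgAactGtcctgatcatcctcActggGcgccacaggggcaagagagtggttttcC
Each stretch of 75 bases was chosen as the one with the most differences inside the parent's coding sequence, and it holds 3 and 6 of them in these pairs.

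Gm15542 (chromosome 7, 140890887 to 140892080) is 99.4% identical over 1194 bases to Dnaja1, which encodes a cochaperone of HSP70. It had 9.76, 9.37 and 7.88 CPM in WT and 17.9, 19.8 and 27.0 CPM in Ulk1OV, a log2 rise of 1.26 ± 0.17 (edgeR adjusted p = 0.0106, corrected value 1.11). Dnaja1 was not called: its log2 fold change was -0.03, on 4331 to 5632 counts per library. Gm15427 had 25.4, 22.7 and 22.5 CPM in WT and 37.6, 57.6 and 49.1 CPM in Ulk1OV, a log2 rise of 1.03 ± 0.15 (edgeR adjusted p = 0.0121, corrected value 1.25). Rpl6l rose from 21.9 to 25.1 CPM to 37.4 to 51.1 CPM (log2 0.90 ± 0.14, edgeR adjusted p = 0.0158, corrected value 0.98), and its parent Rpl6 differed by -0.05.

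Gm5776, a copy of the mitochondrial ribosomal protein gene Mrps33 with 99.7% identity, rose by 1.14 ± 0.20 and Gm8292, a copy of Rps24, by 1.05 ± 0.27 on the log2 scale, with parents at 0.11 and 0.12. Gm6206 rose by 0.85 ± 0.14. These 3 were called with the correction as well. Of the 26 processed pseudogenes that rose 20 had a protein-coding copy of at least 95% identity elsewhere. The closest such copy rose for 1 of these 20 and fell for 0. Of the 26 that fell 25 had one, tested for 22, and it rose for 0 and fell for 5. These counts are by pseudogene: Rpl23a is the closest coding copy of both Gm10132 and Gm10335 and enters once for each. Counting between near-identical copies in these libraries was not tested.

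The remaining 4 of the 10 largest rises were protein-coding genes. Dio2, the deiodinase with which astrocytes activate thyroid hormone, had 84.8, 86.6 and 89.4 CPM in WT and 157.9, 182.2 and 178.9 CPM in Ulk1OV. The groups were far apart relative to their spread, yet the adjusted p was close to the threshold (log2 0.99 ± 0.27, edgeR adjusted p = 0.0492) and the corrected value of 0.89 was not called (edgeR adjusted p = 0.0863). The fit takes its spread from all 12 libraries, and Dio2 varied more outside these groups. It had 101.7 to 176.5 CPM in 5xFAD and 65.75 to 160.1 CPM in 5xFAD;Ulk1OV. Nts, the neuropeptide neurotensin, had 8.28 to 9.87 CPM in WT and 12.98, 16.2 and 27.9 CPM in Ulk1OV (log2 1.05 ± 0.27, edgeR adjusted p = 0.0446, corrected value 0.86 at 0.0685). Epb41l4a, a membrane skeleton protein of the band 4.1 family, rose by 0.85 ± 0.21 and Synpo2, an actin-binding protein, by 0.83 ± 0.18 on the log2 scale, and both were also called with the correction.

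Among the smallest p-values the rises included Zfr, a zinc finger RNA-binding protein, with 329.2 to 349 CPM in WT and 464.2 to 523.9 CPM in Ulk1OV (log2 0.56 ± 0.08, edgeR adjusted p = 0.0106, corrected value 0.45). Tgs1, which trimethylates the cap of small nuclear RNAs, rose from 30.6 to 33.6 CPM to 44.0 to 52.1 CPM (log2 0.61 ± 0.09, edgeR adjusted p = 0.0113). The falls included Fam69b, a protein kinase-like protein of the endoplasmic reticulum, from 38.5 to 46.1 CPM to 18.0 to 24.3 CPM (log2 -0.99 ± 0.13, corrected -0.68), and Slc16a11, a monocarboxylate transporter, from 13.6 to 19.9 CPM to 4.30 to 6.61 CPM (log2 -1.62 ± 0.22, corrected -1.25). Both had an edgeR adjusted p of 0.0106, and these 4 genes were called with the correction as well.

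**Figure D2:**
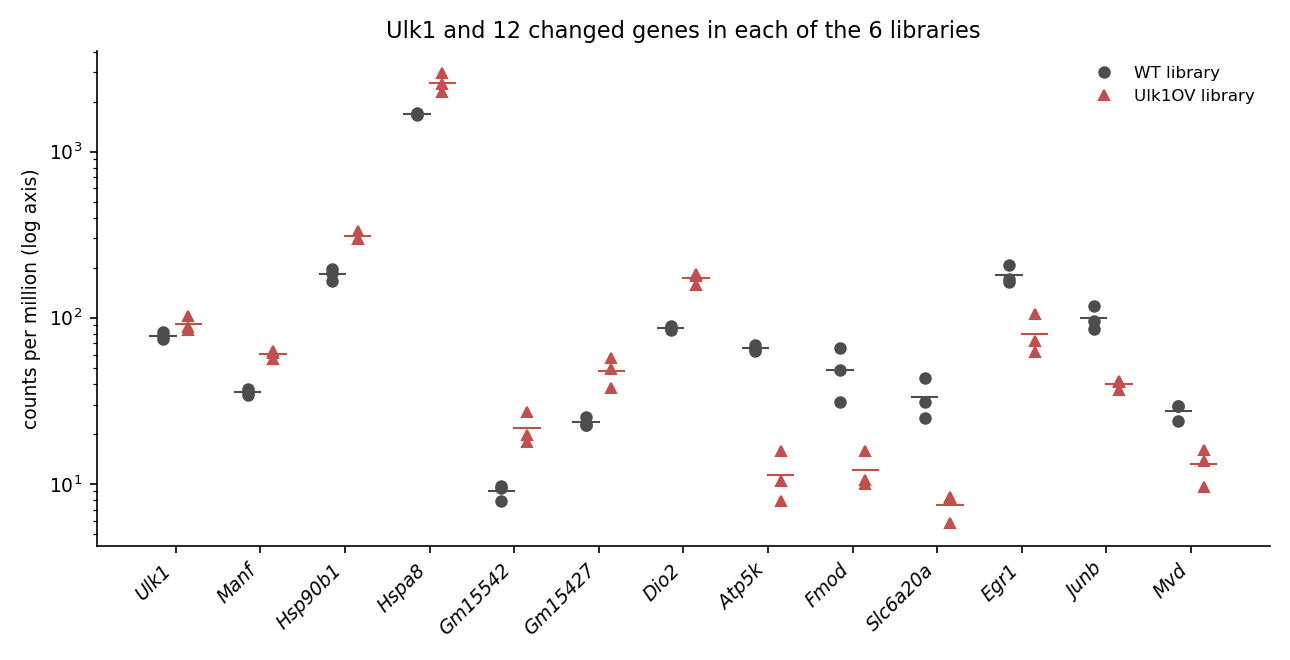
CPM (log axis) of Ulk1 and 12 genes in the 3 WT libraries (circles) and the 3 Ulk1OV libraries (triangles), with a line at each group's mean. The groups do not overlap in any of the 13 genes, and the gap is smallest for Ulk1 and largest for Atp5k.

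Fibroblast markers were frequent among the largest falls. Of the 10 largest, 5 belong to the list of markers of the fibroblasts that line the meninges and the vessels: Slc6a20a, Fmod, Slc6a13, Col1a1 and Slc22a6. Outside that list stood Mgp, an extracellular matrix protein, Aldh1a2, which makes retinoic acid, and Mrc2, an endocytic collagen receptor. Fmod, a small proteoglycan that organises collagen fibrils, had 66.1, 48.6 and 31.0 CPM in WT and 15.8, 10.03 and 10.5 CPM in Ulk1OV, a fall of 2.004 ± 0.368 on the log2 scale (edgeR adjusted p = 0.0222, corrected -1.89). Slc6a20a, a proline transporter, had 43.3, 31.1 and 25.01 CPM in WT and 8.30, 8.20 and 5.78 CPM in Ulk1OV (log2 -2.16 ± 0.43, edgeR adjusted p = 0.0251, corrected -2.22). In both genes WT replicate 1 was the highest of the 3 WT libraries, and the lowest WT library was above the highest Ulk1OV library. The log2 fold changes of the other 6 ran from -2.149 (Mgp) to -1.79 (Mrc2). With the correction 7 of these 8 genes were called and Mrc2 was not (log2 -1.54, edgeR adjusted p = 0.0734).

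The list of 17 meningeal and perivascular fibroblast markers had many calls in 1 direction: 12 fell, 0 rose, 17 of 17 had a log2 fold change below 0, and their median was -1.73 against 0.003 for all genes. With the correction 8 fell and the median was -1.57. Their summed level was 495.8 to 688.5 CPM in WT and 227.8 to 298.9 CPM in Ulk1OV. In a bulk sample fewer cells of a type and less RNA per cell cannot be told apart, and how much of the covering membranes was taken with the tissue was not tested. Collagen chains, which fibroblasts make, had 6 falls among 38 tested genes (median -0.72) and 3 with the correction (median -0.43), with Col3a1 at -2.56 ± 0.57 (edgeR adjusted p = 0.0299, corrected -2.48).

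Markers of other cells of the vessels and borders gave fewer calls. Endothelial markers had 5 falls among 16, with a median of -0.66, and 3 falls with the correction. Tie1, an endothelial receptor kinase, fell by 1.46 ± 0.32 on the log2 scale (edgeR adjusted p = 0.0299, corrected -1.23). Of 11 mural cell markers 2 fell, with and without the correction. Pdgfrb, a receptor used as a pericyte marker, fell from 20.0 to 21.3 CPM to 11.6 to 14.3 CPM (log2 -0.71 ± 0.15, edgeR adjusted p = 0.0271). Vtn, vitronectin, fell from 59.6 to 102.8 CPM to 23.0 to 29.6 CPM (log2 -1.51 ± 0.32, edgeR adjusted p = 0.0287). All 15 genes of border macrophages and leukocytes were below 0, with a median of -1.09. None was called by edgeR, DESeq2 called 3 falling, and 8 were under 0.05 before adjustment. One haemoglobin chain, Hbb-bt, fell by 2.03 ± 0.46 on the log2 scale (edgeR adjusted p = 0.0315, corrected -1.996 and called), 1 call among 5 red blood cell genes.

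Of 16 choroid plexus genes edgeR called 0, as did DESeq2, with 0 at an unadjusted p under 0.05: their sum was 303.2 to 8664 CPM in WT and 327.1 to 6092 CPM in Ulk1OV, set by 1 library in each group. Genes of motile cilia, which ependymal cells carry, were higher in 28 of 29 cases with a median of 0.83, but 2 passed the test, Cfap221 at 1.36 ± 0.32 (edgeR adjusted p = 0.0353) and Spata17 at 1.37 ± 0.35 (edgeR adjusted p = 0.0427), of which Cfap221 was called with the correction. Their summed level was 220 to 364.1 CPM in WT and 391.3 to 530 CPM in Ulk1OV. Of 18 microglia markers, 18 myelin genes, 11 oligodendrocyte precursor markers and 14 plaque-associated microglial genes edgeR called 0 each, DESeq2 called 1, 1, 1 and 0, and 3, 1, 3 and 3 had an unadjusted p under 0.05. Their medians were -0.08, -0.01, -0.09 and -0.18.

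**Figure D3:**
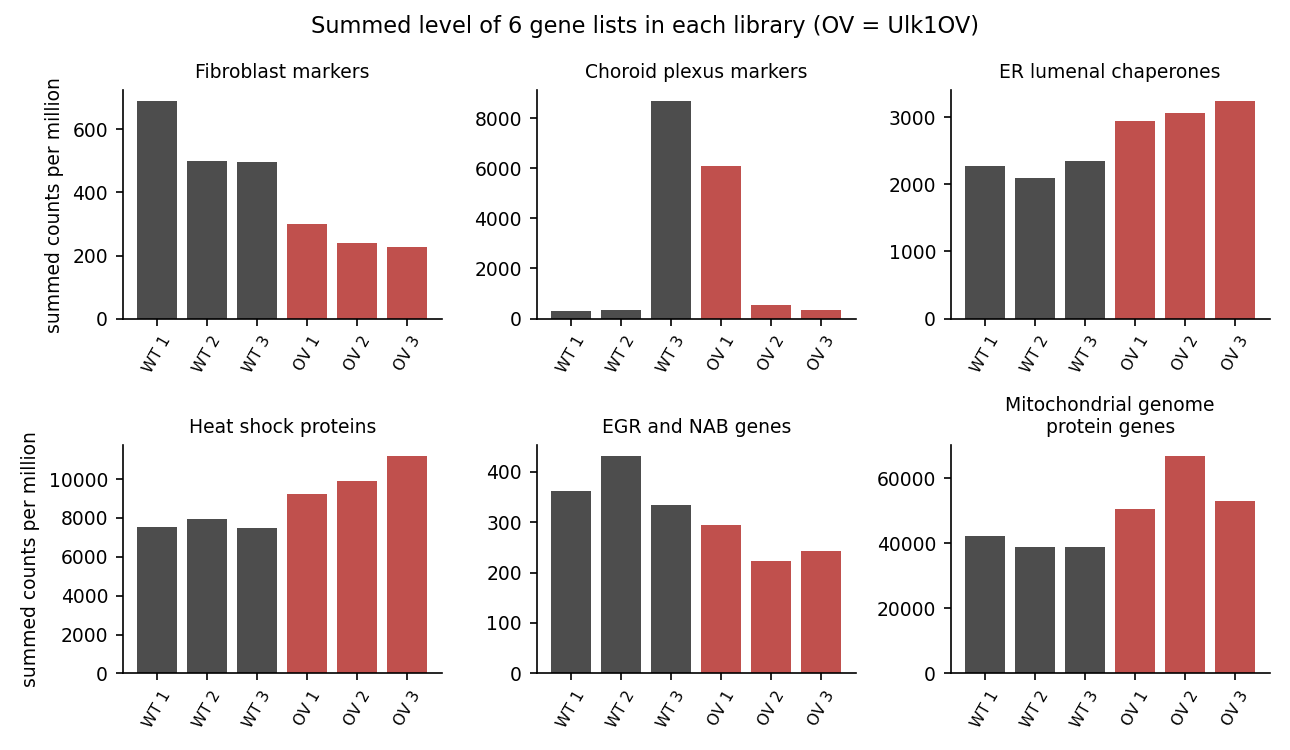
Summed CPM of 6 gene lists in each WT (grey) and Ulk1OV (red) library. Fibroblast markers are lower in each Ulk1OV library than in each WT library, endoplasmic reticulum chaperones and heat shock proteins are higher, and choroid plexus markers are high in WT replicate 3 and Ulk1OV replicate 1.

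Several immediate-early genes, which neuronal activity induces rapidly, fell in Ulk1OV. Such genes encode transcription factors such as EGR1 and FOS, and their feedback regulators. Of 6 EGR factors and NAB corepressors 3 fell and 0 rose, with a median of -1.06, and the same count held with the correction (median -0.74). Egr1 had 172.1, 206.4 and 164.5 CPM in WT and 104.7, 61.9 and 72.0 CPM in Ulk1OV, a log2 fold change of -1.19 ± 0.16 (edgeR adjusted p = 0.0106, corrected -0.97). Egr4 was at -1.43 ± 0.24 and Nab2, which represses EGR targets, at -0.93 ± 0.18 (edgeR adjusted p = 0.0199 and 0.0251).

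Of 6 FOS and JUN genes 3 fell. Fos had 40.3, 38.2 and 32.1 CPM in WT and 14.4, 15.5 and 18.3 CPM in Ulk1OV (log2 -1.20 ± 0.20, edgeR adjusted p = 0.0195, corrected -1.15). Junb had 96.0, 117.1 and 86.1 CPM in WT and 41.1, 41.6 and 36.6 CPM in Ulk1OV (log2 -1.33 ± 0.18, edgeR adjusted p = 0.0106, corrected -0.95). Jund, which has a GC content of 67.15%, fell by 0.77 ± 0.18 on the log2 scale, and its corrected value of -0.27 was not called (edgeR adjusted p = 0.142). Among 34 other activity-induced genes 10 fell and 2 rose, and 3 fell and 2 rose with the correction.

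Klf2, a zinc finger factor that endothelial cells also express, had 17.5, 9.48 and 12.6 CPM in WT and 2.93, 4.48 and 3.16 CPM in Ulk1OV (log2 -1.90 ± 0.31, edgeR adjusted p = 0.0191). Nr4a1, an orphan nuclear receptor, fell by 1.11 ± 0.20 (edgeR adjusted p = 0.0222) and Btg2, an antiproliferative regulator, by 1.40 ± 0.26 on the log2 scale (edgeR adjusted p = 0.0222). All 3 were called with the correction too. The promoter of Btg2 shows the cyclic AMP response element through which CREB acts, in capitals (GRCm38.p6, chr1:134079289-134079346, minus strand, RefSeq). It ends 194 bases before the GENCODE start of the gene.
Btg2: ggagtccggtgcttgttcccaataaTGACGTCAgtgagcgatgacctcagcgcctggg
The 8 bases TGACGTCA, searched on both strands of the 250 bases before each RefSeq start, were present for 5 of the 26 other activity-induced genes with a promoter sequence and for 2.88% of 12264 tested genes. They were absent from the promoters of the 6 FOS and JUN genes and of 4 EGR and NAB genes. Of the 5 genes with a match Btg2 and Dusp1, a phosphatase of MAP kinases, fell (log2 -1.40 and -0.95), Scg2, a secretory granule protein, rose (log2 0.58), and Maff and Pcsk1 were not called. With the correction Btg2 and Scg2 were called, and Dusp1 was not (log2 -0.84, edgeR adjusted p = 0.0504). Dusp1, Scg2, Maff and Pcsk1 are named for the match and not by the rule for named genes.

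Of the chaperone genes of the endoplasmic reticulum 9 of 22 rose. Their proteins fold newly made secretory and membrane proteins, and their genes are the classical targets of the unfolded protein response through the factors ATF6 and XBP1. In this list of lumenal chaperones and folding enzymes 1 gene, Txndc5, fell (log2 -0.46, named after its value was seen), 12 were not called, and the median was 0.36. With the correction 7 rose and 0 fell. Manf (chromosome 9), a secreted protein induced by endoplasmic reticulum stress, had 35.7, 34.3 and 37.0 CPM in WT and 56.5, 60.9 and 63.4 CPM in Ulk1OV, a narrow spread in both groups. Its log2 fold change was 0.76 ± 0.11 (edgeR adjusted p = 0.0113, corrected 0.79). Hsp90b1, the lumenal HSP90, had 186.5, 167 and 196.3 CPM in WT and 299.7, 297.8 and 331.8 CPM in Ulk1OV (log2 0.76 ± 0.13, edgeR adjusted p = 0.0199, corrected 0.64). Pdia3, a disulfide isomerase that works on glycoproteins, rose by 0.56 ± 0.11 (edgeR adjusted p = 0.0251, corrected 0.50).

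The sequence through which ATF6 binds these promoters, the endoplasmic reticulum stress element, is CCAAT followed 9 bases later by CCACG. It was found on either strand of the 250 bases before the RefSeq start in 7 of 18 lumenal chaperone genes with a promoter sequence, in 2 of 15 genes for stress sensors and degradation factors, and in 0.16% of 12264 tested genes. The matches of the chaperone genes are shown with 5 bases on either side, read in the direction that puts CCAAT first, with both boxes in capitals (GRCm38.p6, RefSeq).
Hspa5: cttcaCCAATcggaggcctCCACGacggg
Hsp90b1: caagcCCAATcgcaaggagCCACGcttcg
Hsp90b1 (opposite strand): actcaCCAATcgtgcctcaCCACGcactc
Calr (opposite strand): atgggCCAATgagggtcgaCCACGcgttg
Creld2 (opposite strand): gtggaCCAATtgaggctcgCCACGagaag
Pdia6: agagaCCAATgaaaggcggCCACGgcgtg
Canx: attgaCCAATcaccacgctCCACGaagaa
Dnajc3: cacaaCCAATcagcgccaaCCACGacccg
They lie at chr2:34772020-34772048 for Hspa5, chr10:86705633-86705661 and chr10:86705528-86705556 for Hsp90b1, chr8:84847070-84847098 for Calr, chr15:88819515-88819543 for Creld2, chr12:17266486-17266514 for Pdia6, chr11:50325795-50325823 for Canx and chr14:118937822-118937850 for Dnajc3. The 2 boxes and their spacing are the same in each, while the bases between and around them vary.

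The genes with a match were named for it and not by the rule for named genes. Hspa5, the HSP70 of the endoplasmic reticulum, rose from 242 ± 36.4 to 427.9 ± 29.7 CPM (SD, n = 3), a log2 fold change of 0.82 ± 0.18 (edgeR adjusted p = 0.0292, corrected 0.76). Calr, the lectin chaperone calreticulin, rose by 0.70 ± 0.16, Creld2 by 0.71 ± 0.18 and Pdia6, a disulfide isomerase, by 0.50 ± 0.13 on the log2 scale (edgeR adjusted p = 0.0299, 0.0431 and 0.0444). Canx at 0.25 and Dnajc3 at 0.46 were not called (edgeR adjusted p = 0.0582 and 0.0609). So 5 of these 7 genes rose, and 4 of the 5, all but Pdia6, were also called with the correction. The 2 matches among sensors and degradation factors were in Derl3, at a log2 fold change of 0.55, and Syvn1, at -0.19, and neither was called (edgeR adjusted p = 0.446 and 0.312). A match describes the letters of a promoter and shows no binding.

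Among the sensors of endoplasmic reticulum stress and the degradation factors edgeR called 0 of 19 (4 at an unadjusted p under 0.05, 1 rising and 1 falling by DESeq2), with a median of -0.002. Xbp1, whose messenger RNA is spliced by the sensor IRE1, had 72.0 to 79.1 CPM in WT and 90.0 to 107.5 CPM in Ulk1OV. Its log2 fold change of 0.40 ± 0.12 was not called (edgeR adjusted p = 0.0658), and its corrected value of 0.48 was (edgeR adjusted p = 0.048). In the arm of the response that runs through ATF4, a factor made when translation initiation is limited, 2 of 22 genes fell and 0 rose. Atf4 fell by 0.49 ± 0.11 (edgeR adjusted p = 0.03, corrected -0.33 and not called) and Slc7a11, the cystine transporter, by 0.77 ± 0.16 on the log2 scale (edgeR adjusted p = 0.0271, corrected -0.93).

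Cytosolic chaperones gave rises as well. Of 28 heat shock protein genes 3 rose, 0 fell and 25 were not called, with a median of 0.28, and 4 rose with the correction. Hspa8, the constitutive HSP70, had 1687, 1707 and 1666 CPM in WT and 2277, 2543 and 2964 CPM in Ulk1OV (log2 0.62 ± 0.11, edgeR adjusted p = 0.0222, corrected 0.55). Hsp90aa1, the inducible cytosolic HSP90, rose by 0.59 ± 0.12 and Hsph1, a nucleotide exchange factor of HSP70, by 0.64 ± 0.14 on the log2 scale (edgeR adjusted p = 0.0283 and 0.0287), and both were called with the correction. The heat shock element is GAA, TTC and GAA with 2 bases between them. It was present for 3 of the 22 members with a promoter sequence (13.6%), against 0.46% of 12264 tested genes. These were Dnajb6, Hspd1 and Hspe1, none of which was called. The other members of the 22 were searched and had no match. Hspa8 was among the members without a promoter sequence to search.

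Some genes of cholesterol synthesis fell. Of 26 genes for the synthesis and uptake of cholesterol 6 fell and 0 rose, 23 were below 0, and the median was -0.26. With the correction 4 fell. Mvd, mevalonate diphosphate decarboxylase, had 29.6, 29.3 and 23.8 CPM in WT and 9.61, 16.0 and 13.6 CPM in Ulk1OV (log2 -1.07 ± 0.17, edgeR adjusted p = 0.0174, corrected -0.81). Tm7sf2, a sterol reductase, fell by 0.74 ± 0.18 on the log2 scale (edgeR adjusted p = 0.035) and was called with the correction.

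Atp5k (chromosome 5, 108433244 to 108434448), the e subunit of the ATP synthase, gave the largest fall among the protein-coding genes called with a mean of at least 10 CPM. It had 63.0, 64.8 and 68.8 CPM in the WT libraries and 10.4, 15.7 and 7.90 CPM in the Ulk1OV libraries. The log2 fold change was -2.54 ± 0.33 (edgeR adjusted p = 0.0106, corrected -2.35). Leaving out any 1 of the 6 libraries gave -2.86 to -2.33, and the call ended in 3 of these 6 fits. Atp5g3, of the ring that turns in the membrane, had 250.5, 252.8 and 241.6 CPM in WT and 112.5, 159.3 and 104.6 CPM in Ulk1OV (log2 -0.99 ± 0.15, edgeR adjusted p = 0.0158). Atp5e, of the stalk, fell by 0.81 ± 0.13 on the log2 scale (edgeR adjusted p = 0.0195). These were the 3 falls among 18 ATP synthase subunits, whose median was -0.09, and the 3 were also called with the correction.

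Nuclear subunits of the respiratory complexes gave falls of a smaller size. Of 37 complex I subunits 4 fell and 0 rose, with a median of 0.008. With the correction 3 fell and 5 rose. Ndufa1 had 44.6 to 54.3 CPM in WT and 28.1 to 37.8 CPM in Ulk1OV (log2 -0.65 ± 0.13, edgeR adjusted p = 0.0251), and Ndufa3 fell by 0.67 ± 0.15 on the log2 scale (edgeR adjusted p = 0.0308). Of 25 subunits of complexes II, III and IV 3 fell and 1 rose, among them Uqcrfs1, the Rieske iron-sulfur protein (log2 -0.50 ± 0.09), and Uqcrh, the hinge protein of complex III (log2 -0.47 ± 0.11). All 4 of these genes were called with the correction.

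Among the 13 mitochondrially encoded protein genes 3 rose and 11 were above 0, with a median of 0.44, and 1 rose with the correction. mt-Nd6, a complex I subunit, had 975.8 to 1085 CPM in WT and 1561 to 1827 CPM in Ulk1OV (log2 0.73 ± 0.12, edgeR adjusted p = 0.0169, corrected 0.55). It lies next to mt-Nd5 on the other strand, and only their ends overlap (bases 13552 to 14070 and 11742 to 13565). The sources used here do not say whether counting used strand. mt-Nd5 rose by 0.58 ± 0.14 and mt-Nd2 by 0.67 ± 0.17 on the log2 scale, and neither was called with the correction. Their transcripts have a GC content of 34.1% to 37.12%. Among 16 tested RNA genes of the mitochondrial genome 3 fell and 1 rose; mt-Te and mt-Tl2, transfer RNAs of 69 and 71 bases, had 4.82 to 7.23 and 2.95 to 7.46 CPM in WT and 0.624 to 1.003 and 0.649 to 0.874 CPM in Ulk1OV. Transcripts this short are poorly kept in messenger RNA libraries, and those 2 values are uncertain.

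**Figure D4:**
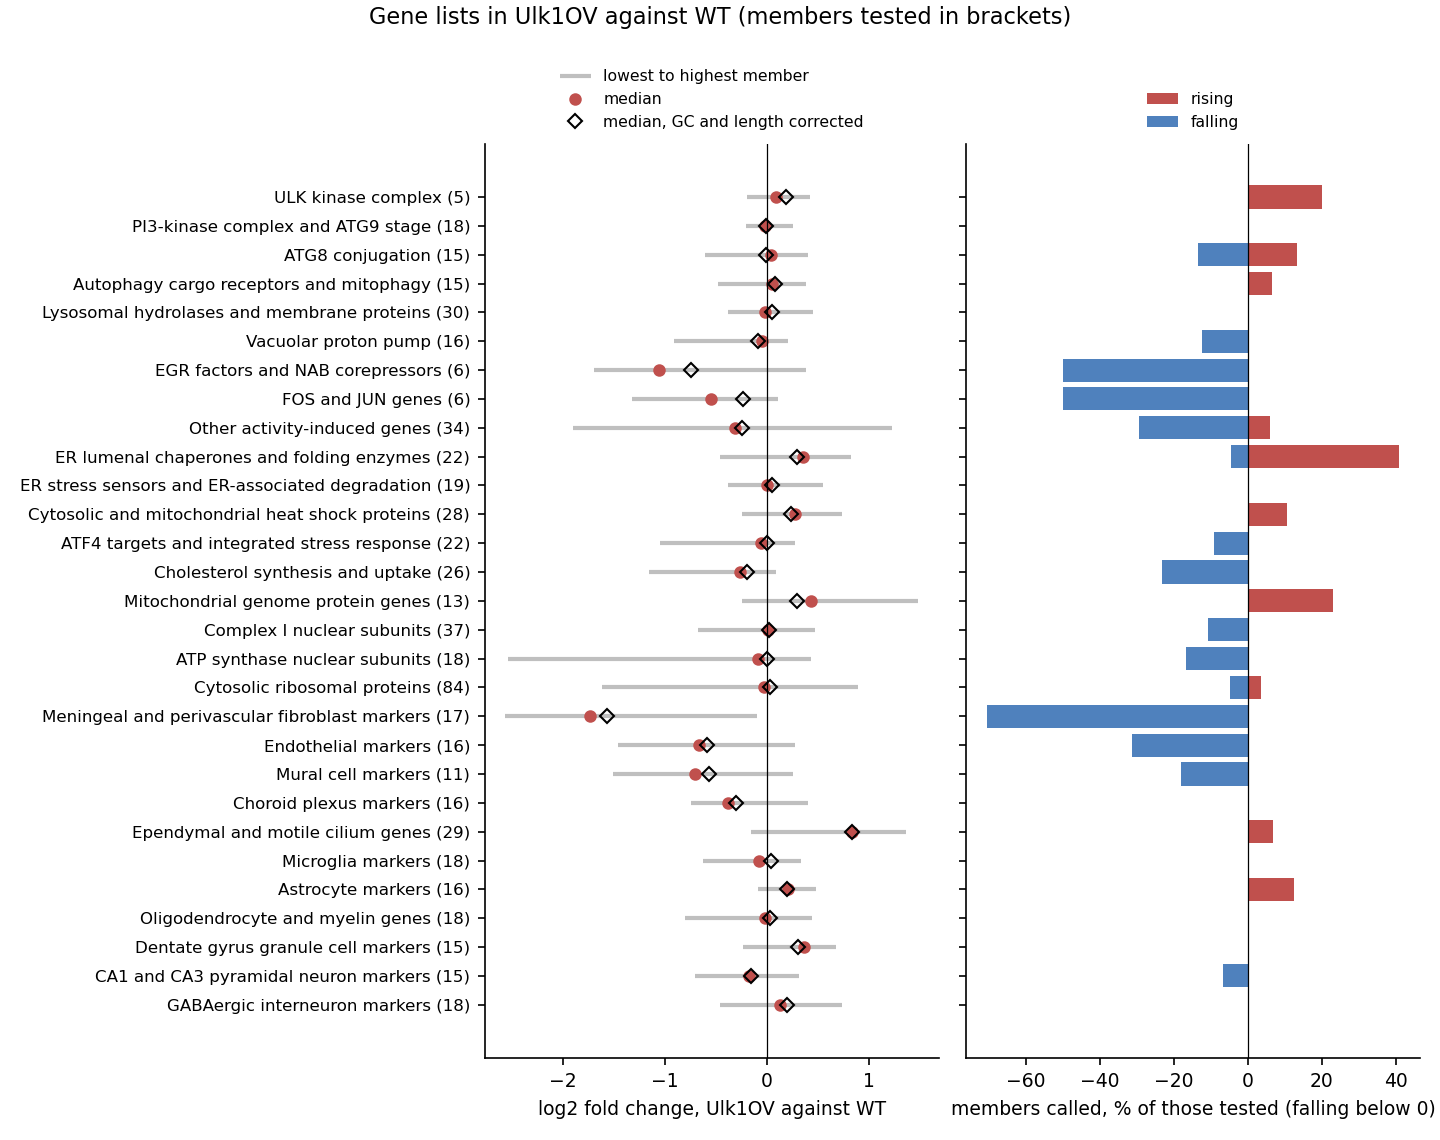
Left, median log2 fold change of 29 gene lists in Ulk1OV against WT (red circles), the range of the members (grey bars) and the corrected median (diamonds). Right, percent of tested members called rising or falling. Fibroblast markers have the lowest median, -1.73, and 9 of 22 endoplasmic reticulum chaperones rose.

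Ribosomal protein genes gave calls in both directions. Of 84 cytosolic ribosomal protein genes and named copies 3 rose and 4 fell, with a median of -0.03. This is a larger share than the 5.17% of all tested genes called. With the correction 7 rose and 4 fell (median 0.03), against 1.70% and 1.35% of all tested genes. Rpl23a fell, with 115.1, 129 and 91.9 CPM in WT and 22.9, 59.1 and 27.3 CPM in Ulk1OV (log2 -1.62 ± 0.34, edgeR adjusted p = 0.0272, corrected -1.64). Gm10132, a pseudogene 99.8% identical to Rpl23a over 445 bases, fell by 2.19 and its own near copy Gm10335 by 1.75 on the log2 scale. A further copy, Rpl23a-ps3, had a log2 fold change of 0.51 that was not called. Their reads can be exchanged between these copies. Rpl22l1, a paralog of Rpl22, had 29.9 to 48.0 CPM in WT and 11.5 to 20.8 CPM in Ulk1OV (log2 -1.36 ± 0.26, edgeR adjusted p = 0.0251, corrected -1.49). Gm23935, annotated as a microRNA gene of 57 bases, had 211.8 to 391.9 CPM in WT and 7.96 to 72.0 CPM in Ulk1OV (log2 -3.045 ± 0.68, edgeR adjusted p = 0.0299, corrected -2.59), and its short length makes that value uncertain.

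The neuron types of the hippocampus gave few calls. Of 15 dentate granule cell markers 0 were called by edgeR or DESeq2 (5 at an unadjusted p under 0.05) although 14 were above 0, with a median of 0.36. Of 15 CA1 and CA3 pyramidal markers 1, Pou3f1, fell (log2 -0.71), with a median of -0.18. With the correction Pou3f1 stood at -0.26 and was not called (edgeR adjusted p = 0.3997), which left 0 calls in that list. Of 18 GABAergic markers edgeR called 0 (4 at an unadjusted p under 0.05, 2 by DESeq2), with a median of 0.13. Among synaptic vesicle and scaffold genes 3 of 35 fell and 0 rose: Nlgn2, the adhesion protein of inhibitory synapses, from 175.8 to 211.5 CPM to 96.2 to 129.8 CPM (log2 -0.81 ± 0.17, edgeR adjusted p = 0.0272), Stx1a, the syntaxin of vesicle fusion (log2 -0.77 ± 0.18, edgeR adjusted p = 0.0351), and Nrxn2, a neurexin (log2 -0.52). Pou3f1 and Nrxn2 were named after their values were seen. Nlgn2 was called with the correction (log2 -0.48, edgeR adjusted p = 0.0467). Stx1a was not, nor was Nrxn2, at -0.125 (edgeR adjusted p = 0.352). Gabrb1, a subunit of the GABA-A receptor, rose by 0.51 ± 0.09 on the log2 scale (edgeR adjusted p = 0.0222, corrected 0.35 and called), the only call among 17 GABA receptor subunits.

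Potassium channels had 4 falls and 0 rises among 79 genes, a share close to the 5.17% of all tested genes called. With the correction 2 fell and 2 rose. Kcnj4, an inward rectifier, had 78.3, 78.8 and 58.2 CPM in WT and 42.0, 32.1 and 25.4 CPM in Ulk1OV (log2 -1.12 ± 0.22, edgeR adjusted p = 0.0256, corrected -0.84 and called). Kcnh3, of the EAG family, fell by 0.79 ± 0.14 on the log2 scale, with a corrected value of -0.44 that just missed the threshold (edgeR adjusted p = 0.0513). Of 34 sodium and calcium channel genes 1 rose and 1 fell, also close to that share. Scn9a, a voltage-gated sodium channel, rose from 1.87 to 2.40 CPM to 3.48 to 5.37 CPM (log2 1.11 ± 0.23, edgeR adjusted p = 0.0272, corrected 0.965 and called). Cacng8, an auxiliary subunit of AMPA receptors named after its value was seen, fell from 94.4 ± 12.5 to 49.99 ± 5.42 CPM (SD, n = 3; log2 -0.92 ± 0.17, edgeR adjusted p = 0.0251), and its corrected value of -0.45 was not called.

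Astrocyte markers were above 0 in 14 of 16 cases, and 2 rose: Gjb6, the gap junction protein connexin 30, from 108.3 to 119.9 CPM to 135.5 to 174.3 CPM (log2 0.48 ± 0.12, edgeR adjusted p = 0.0374), and Serpina3n, a protease inhibitor raised in reactive astrocytes (log2 0.46 ± 0.12, edgeR adjusted p = 0.0443). Both were called with the correction. The metallothioneins, small metal-binding proteins abundant in astrocytes, include Mt3 and Mt1, which rose. In their list of 13 glucocorticoid-induced genes and metallothioneins these were the only 2 rises, 0 fell and 11 were not called. Mt3 had 344.7, 338.7 and 392.8 CPM in WT and 464.4, 674.9 and 659.6 CPM in Ulk1OV (log2 0.74 ± 0.14, edgeR adjusted p = 0.0222, corrected 1.11), and Mt1 had 362.3 to 460.6 and 510.6 to 783.4 CPM (log2 0.68 ± 0.16, edgeR adjusted p = 0.0325, corrected 0.76). In both genes Ulk1OV replicate 1 was the lowest of its group. Mt3 rose although its transcript has a GC content of 62.31%, in a range where 5 genes rose and 183 fell.

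Of 19 clock genes 2 fell, Dbp, a clock-controlled transcription factor, by 0.95 ± 0.17 and Ciart, a repressor of the clock, by 0.89 ± 0.19 on the log2 scale (edgeR adjusted p = 0.0211 and 0.0287). Both were called with the correction. The sources used here give no time of day for the dissection. Nuf2, a kinetochore protein, had 3.64 to 3.98 CPM in WT and 7.99 to 9.38 CPM in Ulk1OV (log2 1.19 ± 0.16, edgeR adjusted p = 0.0106, corrected 1.06), and it was the only rise among 17 cell cycle genes, of which 1 fell.

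Of 144 tested genes starting within 5 Mb of Ulk1, 7 were called, or 4.86% against 5.17% of all genes. Atp5k is 1 of them, 2.35 Mb from Ulk1 at lower coordinates. Dynll1, the light chain shared by dynein and myosin V, lies 4.51 Mb to the other side and rose from 305.9 ± 13.8 to 480.5 ± 61.8 CPM (SD, n = 3; log2 0.65 ± 0.10, edgeR adjusted p = 0.0158, corrected 0.61). Dynll1 was named after its value was seen.

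The same label was measured on the 5xFAD background with libraries that neither comparison shares. Most of the 891 genes had the opposite sign there: 797 of them (89.5%), against 64.6% of all tested genes. Of the 368 that rose 311 were below 0, and of the 523 that fell 486 were above 0. With the correction the opposite sign was found for 83.8% of the genes it called and for 58.4% of all genes. The comparison of 5xFAD;Ulk1OV with 5xFAD called 8 genes (0.0464% of those tested; 3003 at an unadjusted p under 0.05), and 6 of them were among the 891. The difference between the backgrounds, tested as an interaction in the same edgeR fit, was called for 2197 genes (12.8%) and for 893 genes with the correction. The trend over GC content also ran the other way, with a median of -0.22 in the lowest decile and 0.21 in the highest. The library labelled 5xFAD;Ulk1OV replicate 3 had 1304 CPM of App, within the 1234 to 1490 CPM of WT and Ulk1OV, where the other 5 libraries with the 5xFAD label had 2204 to 2664 CPM. It enters this comparison, and without it the interaction called 2539 genes and Ulk1OV against WT 1183.

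Atp5k, with -2.54 on the wild type background, stood at 1.60 ± 0.31 on the 5xFAD background (edgeR adjusted p = 0.0597). Fmod, with -2.004, stood at 0.95 ± 0.35 there (edgeR adjusted p = 0.191), so neither was called on the 5xFAD background. Atp5k had 38.33, 14.6 and 14.06 CPM in 5xFAD replicates 1 to 3 and 65.54 to 69.69 CPM in 5xFAD;Ulk1OV. In WT it had 63 to 68.85 CPM and in Ulk1OV 7.9 to 15.69 CPM. Low levels were thus also found in 5xFAD libraries without the Ulk1OV label, and 5xFAD;Ulk1OV stood near WT. Fmod had 57.39, 71.45 and 22.1 CPM in 5xFAD;Ulk1OV replicates 1 to 3 and 23.8 to 29.72 CPM in 5xFAD. Its rise was thus absent from replicate 3, the library with the App level of WT and Ulk1OV. The whole fibroblast list had medians of -1.73 and 0.90, and 13 of its 17 members were called in the interaction. Mitochondrial genome protein genes had medians of 0.44 and -0.43. Egr1, with -1.19, stood at -0.05, near 0 on the 5xFAD background. In 51 genes that rose and 30 that fell the sign was the same on both backgrounds and the interaction was not called. Manf was 1 of them, with 0.76 and 0.28 (interaction -0.48 ± 0.15, edgeR adjusted p = 0.0556). The endoplasmic reticulum chaperones had medians of 0.36 and 0.18. Ulk1 had log2 fold changes of 0.23 and 0.35 (interaction 0.12 ± 0.16, edgeR adjusted p = 0.664).

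**Figure D5:**
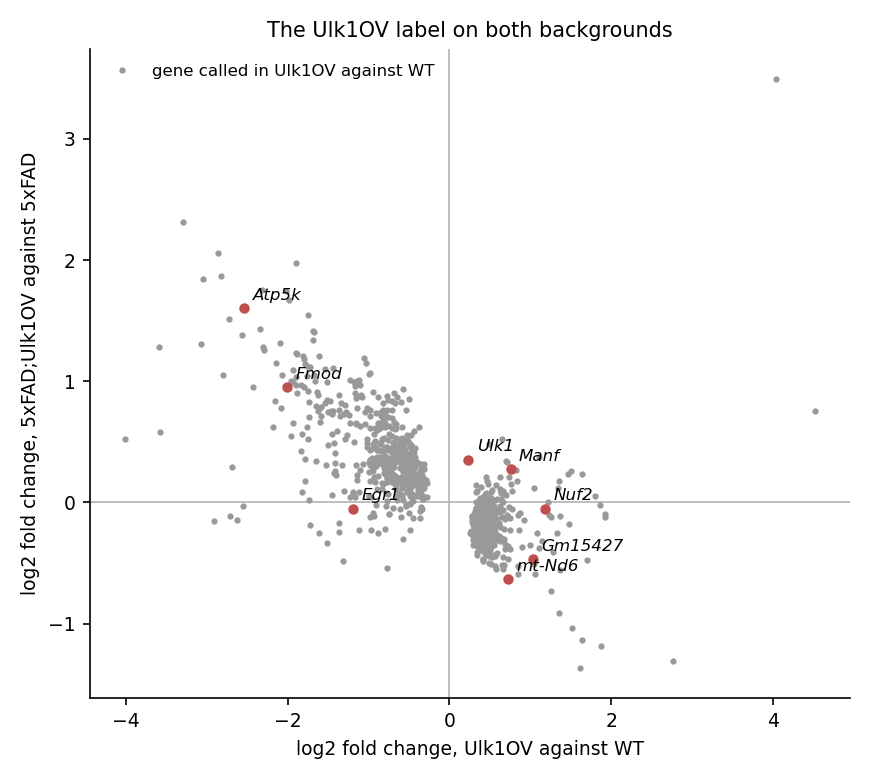
Log2 fold change of the 891 genes called in Ulk1OV against WT (x axis) beside that of 5xFAD;Ulk1OV against 5xFAD (y axis), with Ulk1 and 7 other named genes in red. Most points lie in the upper left and lower right corners, where the sign differs between the backgrounds, as for Atp5k at -2.54 and 1.60.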

How the data were processed

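Hippocampal RNA of 12 mouse libraries was measured by RNA-seq, and Ulk1OV (n = 3) was compared with WT (n = 3). The deposited table holds raw counts per gene. Per the submitters' processing notes the tools were HISAT2 and featureCounts on mm10, with SAMtools, Trim Galore, FastQC and DESeq2, without versions or order. The strand setting and annotation of the counting are not given in those notes.

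Groups came from the sample titles. Genes passing filterByExpr were fitted with edgeR 4.0.16 (R 4.3.3; TMM, quasi-likelihood) over all 12 libraries with 1 mean per group, and p-values were adjusted by Benjamini-Hochberg over all 17227 genes. CPM are TMM-scaled. The correction subtracts each library's loess trend (span 0.4) over GC content and log2 length of GENCODE M21 transcripts. DESeq2 1.42.0 was an alternative. Scripts were tested on simulated counts with planted changes, where 5.93% of calls were false with edgeR and 23.3% with DESeq2. With a trend over GC content planted too, 23.8% of edgeR calls were false without the correction and 4.92% with it. Near-identical copies came from blastn (at least 95% identity). Promoters are RefSeq sequences, 250 bases before each start.

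The rule named Ulk1, the 10 largest changes per direction (mean of at least 10 CPM), the 5 smallest p per direction and 3 genes per list. The text gives some of these. The comparison, the lists and the window were chosen with earlier results of these data known. Lists are described by counts called and medians, without a test.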

Additional observations from a re-analysis of the deposited data

Results flagged for a closer look

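The effect of the Ulk1OV label differed between the wild type and the 5xFAD background for 2197 genes, tested as an interaction in edgeR. Among the 107 genes named in the text 87 were called, with edgeR adjusted p-values of 0.00275 to 0.0487. The share over all tested genes was 12.8%. Of the 107 named genes 99 were called in Ulk1OV against WT, and the interaction subtracts that same difference. Their high share was therefore largely set by how they were chosen and is no separate evidence of a difference between backgrounds. Each value below is the log2 fold change on the 5xFAD background minus that on the wild type background.

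Among autophagy, lysosome and mTOR genes the difference was -0.81 for Rb1cc1, -0.66 for Atg5 and -0.51 for Tax1bp1, and 0.97 for Atg4d, 1.09 for Map1lc3a, 1.25 for Atp6v0c, 0.64 for Atp6v0b, -0.37 for Atp6v0d1, 1.18 for Ddit4 and 0.88 for Stk11. The pseudogenes that rose in Ulk1OV had differences of -1.38 for Gm15542, -1.46 for Gm5776, -1.555 for Gm8292, -1.499 for Gm15427, -1.26 for Rpl6l and -1.08 for Gm6206. For other genes that rose it was -1.65 for Nts, -1.34 for Dio2, -0.95 for Epb41l4a, -0.86 for Zfr, -0.88 for Tgs1, -1.24 for Nuf2, -1.93 for Spata17 and -0.72 for Dynll1.

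Fibroblast, matrix and vessel genes had positive differences, with 2.996 for Slc6a20a, 3.30 for Mgp, 2.95 for Fmod, 3.13 for Slc6a13, 2.925 for Col1a1, 2.79 for Slc22a6, 3.02 for Aldh1a2, 2.935 for Mrc2 and 3.94 for Col3a1. The difference was 2.505 for Vtn, 0.88 for Pdgfrb and 2.215 for Tie1 among vessel genes and 3.775 for Hbb-bt, a haemoglobin chain. Activity-induced genes had 1.13 for Egr1, 1.92 for Egr4, 1.496 for Nab2, 1.28 for Fos, 1.64 for Junb, 1.225 for Jund, 2.87 for Klf2, 1.37 for Nr4a1, 1.62 for Btg2 and 1.205 for Dusp1.

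For chaperones it was -0.60 for Hsp90b1, -0.54 for Pdia3, -0.37 for Canx, -0.65 for Hspa8 and -0.76 for Hsp90aa1, and 0.64 for Txndc5, which had fallen. Among genes of the ATF4 response and cholesterol synthesis it was 0.99 for Slc7a11, 0.73 for Atf4, 1.39 for Mvd and 0.95 for Tm7sf2. Mitochondrially encoded genes had -1.365 for mt-Nd6, -1.13 for mt-Nd5 and -1.19 for mt-Nd2, and the transfer RNAs 2.765 for mt-Te and 3.85 for mt-Tl2. Nuclear genes of the respiratory chain and ATP synthase had 1.52 for Ndufa1, 1.495 for Ndufa3, 0.76 for Uqcrfs1, 0.94 for Uqcrh, 1.60 for Atp5g3, 1.535 for Atp5e and 4.14 for Atp5k.

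Ribosomal protein genes and copies had 2.12 for Rpl22l1, 2.50 for Rpl23a, 2.81 for Gm10132 and 3.295 for Gm10335, and the short RNA gene 4.89 for Gm23935. Astrocyte and metal-binding genes had -1.03 for Mt1 and -0.71 for Serpina3n. Synapse, channel and neuron genes had -0.795 for Gabrb1, 1.05 for Nlgn2, 1.02 for Stx1a, 0.90 for Nrxn2, 0.87 for Kcnh3, 1.205 for Kcnj4, 1.37 for Cacng8 and 0.99 for Pou3f1. The remaining genes had 1.23 for Dbp, 1.295 for Fam69b and 2.375 for Slc16a11. The trend over GC content has opposite slopes on the backgrounds, and with the correction for it the interaction called 893 genes; its part in each single value was not tested.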

How the results depend on the processing

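Of the 891 genes called in Ulk1OV against WT 99.66% kept their direction with the GC and length correction, which also turned the uncalled value of Syvn1 from -0.19 to 0.016. In fits that leave out libraries a kept direction says nothing about stability, since 888 of the 891 genes do not overlap between the groups. The number called was 1850 with DESeq2 (778 rising, 1072 falling), 2079 without a filter on low counts (834 rising, 1245 falling), 525 with the correction (233 falling) and 58 without both libraries high in choroid plexus genes (24 rising, 34 falling), a choice made after seeing the data. Leaving out 1 library gave 0 to 1027 called, 0 to 358 rising and 0 to 669 falling. The interaction called 893 genes with the correction, 1414 without both choroid-high libraries and 974 to 2596 with 1 library left out. Where these changed a count, the cause was not tested. With the replicate number as a block 1033 genes were called, and the numbers did not pair the libraries: deviations of same-numbered WT and Ulk1OV libraries correlated at -0.0879, 0.057 and -0.217. With the correction and 1 library left out 2 to 332 genes were called. Depth of 16149992 counts or more left genes under about 1 CPM with wide intervals.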
